A study of Medicago truncatula with 160 samples.

Results

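Nodules of *M. truncatula* A17 that were rich in rhizobial RNA were compared with A17 nodules that were poor in it. The rhizobial share of a library was the sum of its *S. meliloti* counts divided by the sum of all its counts. Of the 80 A17 libraries, 17 had a share of 45% or more and are called rich, and 19 had a share of 15% or less and are called poor. The 36 libraries of both groups are part of a series of 160, which also holds 80 libraries of the host line DZA. Only *M. truncatula* genes were compared, each scaled on the *M. truncatula* counts of its own library. The libraries were thus chosen by their measured rhizobial share, which is described here and not tested.

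Each library is the nodule RNA of 1 plant. All plants of both groups had the host genotype A17 and had received 1 of 20 wild strains of *S. meliloti*, which the labels call Ensifer meliloti, with 4 plants per strain. They were raised in a greenhouse with 16 hr days, in an autoclaved mix of turface, sand and field soil. Libraries were made with a stranded mRNA kit, pooled and sequenced together on 1 lane, and the labels name no other treatment and no batch. Replicates are separate plants, so p-values measure the spread between plants of one greenhouse experiment.

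Nodules are root organs in which plant cells take up rhizobia from infection threads, enclose them in membrane compartments called symbiosomes, and let them differentiate into nitrogen-fixing bacteroids. In *Medicago* this differentiation is driven by nodule-specific cysteine-rich (NCR) peptides made by the plant, while leghemoglobins, the oxygen carriers of infected cells, keep free oxygen low. Other plant genes hold back defence against the intracellular bacteria and feed them carbon, metals and other nutrients. In bulk nodule RNA, fewer infected cells and less RNA per infected cell cannot be told apart, and the same holds for more rhizobia and more RNA per rhizobium. Whether library preparation with the mRNA kit differed between plants and moved the rhizobial share was not tested either.

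The share ran from 46.4% to 96.3% with a median of 59.9% in the 17 rich libraries, which came from 14 strains. It ran from 5.35% to 14.7% with a median of 11.5% in the 19 poor libraries, which came from 16 strains. The limits cut a continuous range. A plant of strain 278 lay just inside the lower limit at 14.7% and a plant of strain 230 just outside at 15.2%, while a plant of strain 141 lay just inside the upper limit at 46.4% and a plant of strain 206 just outside at 44.6%. Plants of the same strain differed widely: 11 strains had a rich and a poor library, 3 had rich libraries only, 5 had poor ones only and 1, strain 746B, had neither. In strain 724B the 4 shares were 7.56%, 26.2%, 32.2% and 74.7%.

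**Figure D1:**
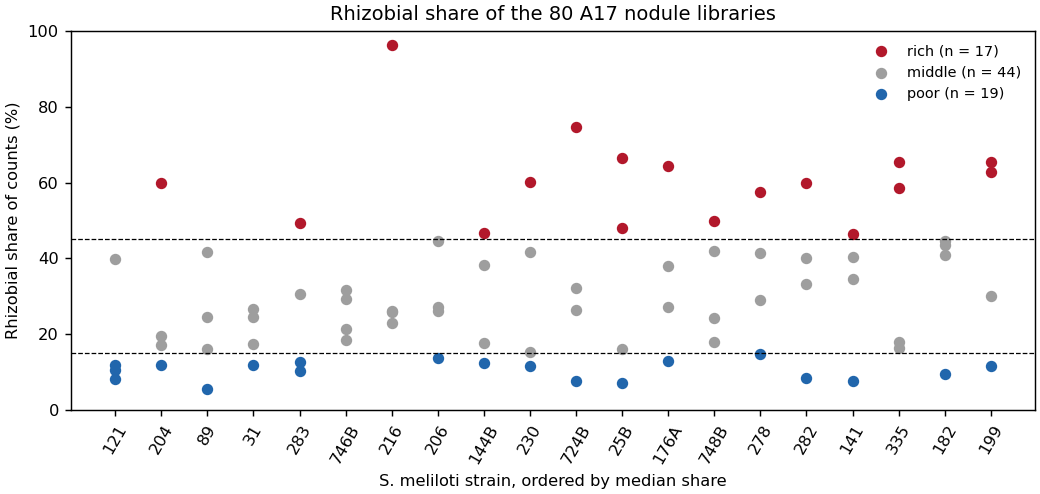
Rhizobial share of counts (percent, vertical axis) of each of the 80 A17 libraries, by strain (horizontal axis, ordered by median share). Each point is 1 plant, red for the 17 rich, blue for the 19 poor and grey for the other 44 libraries, and dashed lines mark 15% and 45%. Most strains hold points in at least 2 of the colours.

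Total counts overlapped between the groups, at 28474905 to 75598612 in rich and 43236341 to 64518280 in poor libraries. *M. truncatula* counts, which enter the share that formed the groups, did not, at 2282942 to 29503170 in rich and 37919836 to 58439685 in poor libraries. The 10 largest *M. truncatula* genes took 38.2% to 82.3% of plant counts in rich libraries and 21.6% to 33.5% in poor ones, and the median number of genes detected was 21240 against 27320. The rich library of strain 216 (plant 3110) stood apart, with the highest share, the fewest *M. truncatula* counts and only 13547 genes detected. A check of each library against the rhizobial genes its strain carries, over 391 genes that vary between strains, found 1 poor library labelled strain 89 with the genes of strain 724B, and 3 rich libraries, 2 of strain 25B and 1 of strain 724B, with genes of a second strain. All 36 libraries were kept under their labels. For the counts over all genes and for named genes, results without these libraries are given where they change. Counts of gene list members in A17 and the fit with strain as a term were not repeated without them.

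Of 34843 *M. truncatula* genes tested, 11887 were higher and 8673 lower in rich than in poor libraries at an adjusted p of 0.05 (edgeR quasi-likelihood test, Benjamini-Hochberg adjustment over all genes tested). That is 59.0% of all genes, 34.1% higher and 24.9% lower, so any single call has to be read against a background in which most genes differed. The split rested on the scaling. TMM, which assumes that most genes do not change, put the median gene at a log2 difference of 0.11, whereas scaling each library on its plain *M. truncatula* sum put it at -0.998 and called 5657 genes higher and 19599 lower (72.5% of genes, 16.2% higher and 56.2% lower). Every one of the 8673 lower calls was also lower under the plain sum, where they made up 44.3% of the lower calls. Of the 11887 higher calls, 5657 (47.6%) stayed higher and 656 were called lower. Directions below are on the TMM scale, and where the plain sum changes one, this is said. With all libraries thinned to the lowest *M. truncatula* total, 11219 genes were higher and 5570 lower. Without the 4 libraries that hold genes of another strain, 11196 were higher and 8085 lower (55.3% of genes). Levels below are TMM-scaled counts-per-million values (CPM) of the *M. truncatula* total, and differences are log2 of rich over poor with their standard error (SE).

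Genes that act on bacteroids were lower in rich libraries. Of 14 genes of bacteroid differentiation and maintenance, 8 fell, none rose and 6 did not pass the threshold, with a median difference of -0.72 against 0.11 over all genes. Among all genes tested, 24.9% were lower and 34.1% higher. Under the plain sum 13 of the 14 fell, against 56.2% of all genes, and the list's median lay 0.82 below that of all genes. With DESeq2, whose size factors put the median of all genes at 0.40, the same number, 8, fell and 3 rose, while limma-voom called 8 lower and none higher, and no member was higher at an unadjusted p under 0.05 in edgeR. MtNCR169 (MtrunA17_Chr7g0229931), an NCR peptide without which bacteroids do not fully differentiate, had a lowest, median and highest level of 59.1, 160.5 and 276 CPM in poor libraries and of 2.40, 22.3 and 155 CPM in rich ones. In 15 of 17 rich libraries it lay below the lowest poor library, and it was lower in the rich plants of all 11 strains that had both kinds. The difference was -2.26 (SE 0.32, edgeR adjusted p = 5.3e-07).

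Members of this group that restrain defence in nodule cells fell too. MtNAD1 (MtrunA17_Chr7g0222521) had 8.73, 17.6 and 41.8 CPM in poor and 0.301, 5.62 and 10.8 CPM in rich libraries, a difference of -1.72 (SE 0.22, adjusted p = 7.3e-08). The ranges overlapped in 3 rich libraries only. MtSymCRK (MtrunA17_Chr3g0119041), a cysteine-rich receptor-like kinase, had a median of 133.6 CPM in poor and 44.9 CPM in rich libraries (difference -1.33, SE 0.27). MtDNF2 (MtrunA17_Chr4g0044681), a phospholipase C-like protein, had medians of 80.02 and 44.02 CPM (difference -0.87, SE 0.20).

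Genes of the symbiosome and its supply made up the rest of the 8 that fell. Among the 6 genes of the group that did not pass, the highest difference was 0.78. MtSYT1 (MtrunA17_Chr4g0037111), a synaptotagmin of the symbiosome membrane system, had 15.3, 17.4 and 22.4 CPM in poor and 0.301, 9.04 and 14.03 CPM in rich libraries. All 17 rich libraries lay below all 19 poor libraries, which held for 117 genes or 0.336% of those tested, and the difference was -1.02 (SE 0.18, edgeR adjusted p = 1.5e-05). MtVTL8/SEN1 (MtrunA17_Chr4g0050851), an iron transporter of infected cells, differed by -1.17 (SE 0.27), MtNPD1 (MtrunA17_Chr2g0332661), a nodule PLAT-domain protein, by -0.74 (SE 0.21) and MtRab7A1 (MtrunA17_Chr4g0004661), a small GTPase of late endosomes, by -0.70 (SE 0.13). MtDNF1 (MtrunA17_Chr3g0087791), a subunit of the signal peptidase that processes NCR peptides, did not pass the threshold, with medians of 53.6 CPM in poor and 44.9 CPM in rich libraries (difference -0.25, SE 0.21, edgeR adjusted p = 0.32).

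Infection and symbiotic signalling was split. Of 18 genes, 8 fell, none rose and 10 did not pass, against 24.9% lower and 34.1% higher over all genes. The list's median was -0.38, and under the plain sum it lay 0.49 below that of all genes. At an unadjusted p under 0.05, 1 was higher, and DESeq2 called 7 lower and 3 higher. MtDMI3 (MtrunA17_Chr8g0355131), the calcium- and calmodulin-dependent kinase that reads nuclear calcium signals, had 14.5, 24.2 and 32.8 CPM in poor and 2.71, 7.14 and 17.6 CPM in rich libraries. It lay below the lowest poor library in 15 of 17 rich libraries and differed by -1.43 (SE 0.19, edgeR adjusted p = 1.1e-07). MtDMI2 (MtrunA17_Chr5g0411631), a receptor-like kinase of the same pathway, had medians of 163.9 and 89.6 CPM (difference -0.86, SE 0.19).

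Several genes at the infection thread and at the release of rhizobia fell. MtSYMREM1 (MtrunA17_Chr8g0386521), a remorin that scaffolds receptors, differed by -1.01 (SE 0.22), MtARP3 (MtrunA17_Chr8g0381261), an actin-nucleating subunit, by -0.99 (SE 0.19), MtVAMP721d (MtrunA17_Chr2g0291651), a SNARE of exocytosis, by -0.76 (SE 0.14) and MtVPY (MtrunA17_Chr6g0461061), vapyrin, by -0.73 (SE 0.18). MtLP11 (MtrunA17_Chr7g0236391) differed by -1.28 (SE 0.25). MtSYP132 (MtrunA17_Chr2g0322801), a syntaxin, was past the threshold by little (difference -0.36, SE 0.15, edgeR adjusted p = 0.042) and not past it in 7 of the 19 fits without 1 strain and in 7 of 13 other settings, among them DESeq2 (-0.08, adjusted p = 0.31) and the fit without the 4 libraries that hold genes of another strain (-0.32, adjusted p = 0.11). MtNIN (MtrunA17_Chr5g0448621), the transcription factor that starts nodule formation, had 103, 181.9 and 237 CPM in poor and 18.3, 134 and 253 CPM in rich libraries. Its groups overlapped in 12 of the 17 rich libraries, and the difference of -0.40 (SE 0.18) missed the threshold at an edgeR adjusted p of 0.053, and passed in 8 of the 19 fits without 1 strain and in 7 of 13 other settings, among them the one without the library of strain 216 (-0.33, adjusted p = 0.032).

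Oxygen carrier genes, a list the study drew from a co-expression module of its DZA libraries, fell in 7 of 9 members and rose in none, with a median of -1.08. The share of all genes that fell was 24.9%. Under the plain sum all 9 members fell, against 56.2% of all genes, with a median 1.07 below that of all genes. DESeq2 called 7 and limma-voom 8 lower, and no member was higher in these or at an unadjusted p under 0.05 in edgeR. The gene of this list with the highest level, MtrunA17_Chr1g0148751, had 3336, 4766 and 6737 CPM in poor and 74.2, 1617 and 4190 CPM in rich libraries. It lay below the lowest poor library in 15 of 17 rich libraries and differed by -1.32 (SE 0.28, edgeR adjusted p = 0.00012). MtrunA17_Chr1g0197531 differed by -1.51 (SE 0.28) and MtrunA17_Chr5g0417631 by -1.32 (SE 0.28). MtrunA17_Chr5g0435621 stood out from the list, with medians of 485.5 CPM in poor and 391 CPM in rich libraries, 2 rich libraries above every poor one and a difference of -0.25 (SE 0.26, adjusted p = 0.43).

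Markers of infected cells and of the infection zone were also summed, to describe what the nodules held. The 15 infected-cell markers (the 9 oxygen carrier genes with MtNCR169, MtNAD1, MtSymCRK, MtVTL8, MtDNF1 and MtSYMREM1) had a summed level of 7736 to 14070 CPM in poor and 171.3 to 10720 CPM in rich libraries, and 12 of them fell with none rising, against 24.9% lower over all genes. All 15 are genes of the paragraphs above, so these falls repeat calls already given. The 9 oxygen carrier genes alone had medians of 9922 CPM in poor and 3803 CPM in rich libraries, against 10590 and 4068 CPM for all 15. The 8 markers of infection and meristem (MtNIN, MtNF-YA1, MtLYK3, MtVPY, MtFLOT2, MtFLOT4, MtCCS52a and MtCycA2-4) had 263.1 to 448.1 CPM in poor and 63.4 to 497.5 CPM in rich libraries, and 1 fell with none rising, although 1 was higher at an unadjusted p under 0.05 and DESeq2 called 3 higher. The infected-cell markers thus summed to at least 171.3 CPM in each of the 36 libraries, and none of their genes passed as higher with DESeq2 or limma-voom either.

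**Figure D2:**
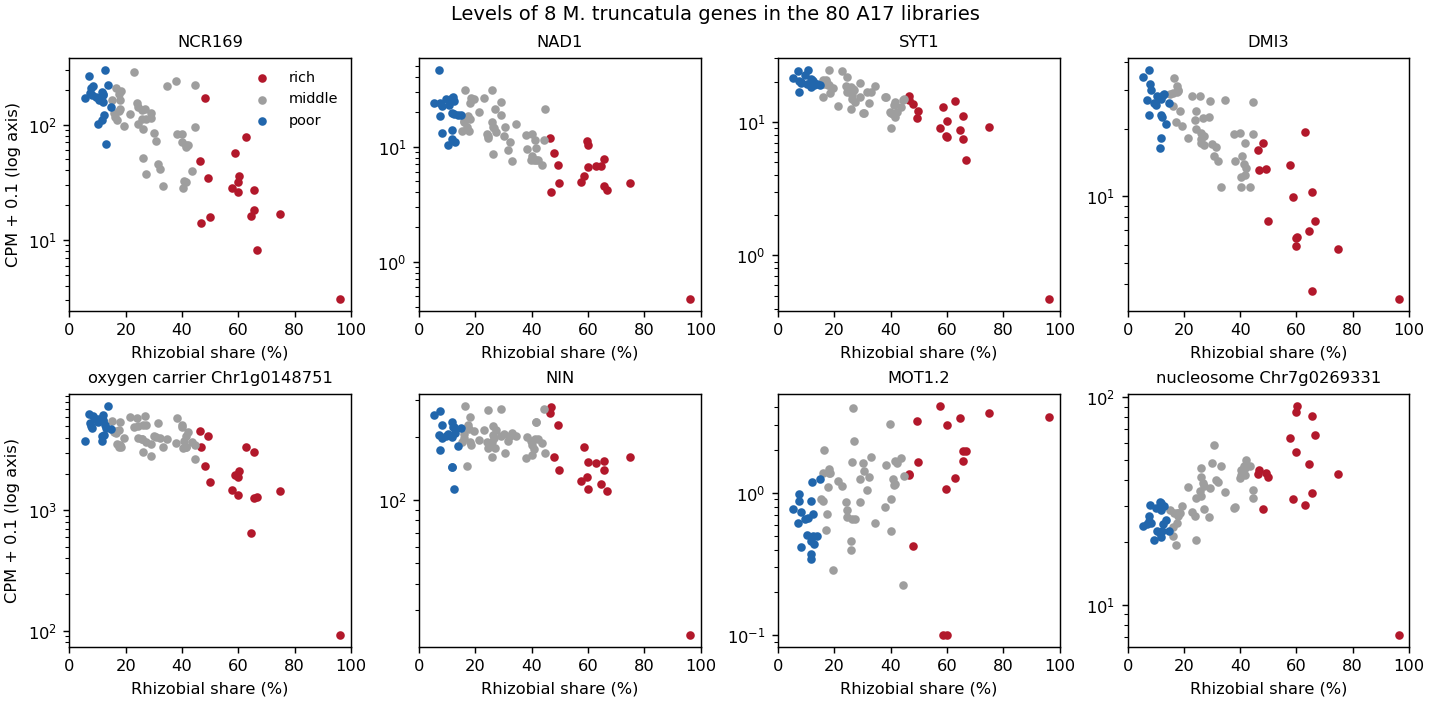
Levels of 8 *M. truncatula* genes (vertical axes, CPM plus 0.1, scaled by TMM over the 80 A17 libraries, log axis) against rhizobial share (percent, horizontal axes), 1 point per A17 library, red for rich, grey for middle and blue for poor. MtNCR169, MtNAD1, MtSYT1 and MtDMI3 fall from left to right through the grey points, MtNIN and the oxygen carrier gene fall mainly among the red points, and MtMOT1.2 and the nucleosome gene are higher in most red points. The lone point at 96.3% is the rich library of strain 216.

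Transporters of the nodule moved both ways. Of 9 metal and nutrient transport genes, 4 fell, 1 rose and 4 did not pass, against 24.9% lower and 34.1% higher over all genes. MtMTP2 (MtrunA17_Chr4g0032191), a zinc transporter, differed by -1.08 (SE 0.16), MtPT5 (MtrunA17_Chr1g0186821), a phosphate transporter, by -1.16 (SE 0.21), MtSULTR3.5 (MtrunA17_Chr6g0485191), of the sulfate transporter family, by -0.89 (SE 0.23) and MtLATD/NIP (MtrunA17_Chr1g0147631), a nitrate transporter needed for the nodule meristem, by -0.89 (SE 0.24). MtMOT1.2 (MtrunA17_Chr1g0148521), a molybdate transporter, had 0.225, 0.512 and 1.07 CPM in poor and 0, 1.46 and 3.46 CPM in rich libraries. It lay above every poor library in 13 rich libraries and at 0 in 2, and the difference of 1.60 (SE 0.35, edgeR adjusted p = 0.00023) shrank to 0.35 (adjusted p = 0.44) under the plain sum.

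Of 5 genes of carbon and lipid metabolism and nitric oxide, 4 fell, against 24.9% of all genes. Without the 7 libraries of highest share 2 were lower, against 20.7% of all genes. DESeq2 called 2 lower and limma-voom 3, against 18.2% and 26.8% of all genes. MtSUCS1 (MtrunA17_Chr4g0070011), the sucrose synthase that opens sucrose to nodule metabolism, had medians of 2452 CPM in poor and 1316 CPM in rich libraries (difference -0.84, SE 0.24). MtTPS2 (MtrunA17_Chr1g0161531) had medians of 61.8 and 25.9 CPM (difference -1.19, SE 0.18), and MtPhytogb1.1 (MtrunA17_Chr4g0034301), a phytoglobin that scavenges nitric oxide, had 13.4 and 5.18 CPM (difference -0.98, SE 0.39, edgeR adjusted p = 0.032), a call lost without the 7 libraries of highest share (-0.57, adjusted p = 0.33). Among 4 genes of nodule number control, only MtTML2 (MtrunA17_Chr6g0459491), an F-box repressor of nodulation, passed (difference -0.91, SE 0.25).

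Among 9 further symbiosis genes with a symbol, 4 rose and 3 fell, near the shares over all genes of 34.1% higher and 24.9% lower. Under the plain sum none rose and 5 fell, against 16.2% higher and 56.2% lower over all genes. MtNAC969 (MtrunA17_Chr4g0042561), a NAC transcription factor, had 0.807, 3.34 and 29.2 CPM in poor and 0, 0.601 and 8.32 CPM in rich libraries (difference -2.01, SE 0.51). LjTRICOT-like (MtrunA17_Chr7g0268161) had 10.2, 15.1 and 39.5 CPM in poor and 6.96, 36.6 and 83.7 CPM in rich libraries, a rise of 0.96 (SE 0.23) that turned to -0.30 under the plain sum. MtCHIT5a (MtrunA17_Chr1g0149821), a chitinase, rose by 0.48 (SE 0.18), and turned to -0.64 under the plain sum. MtZR1 (MtrunA17_Chr3g0123651) was at 0 in 12 poor and 5 rich libraries, with its highest level at 1.65 CPM. MtCAS31 (MtrunA17_Chr6g0484671), a dehydrin, passed with a difference of 2.37 (SE 0.98, edgeR adjusted p = 0.036) that rested on 1 strain, since the rich library of strain 230 was at 241.3 CPM against a rich median of 1.503 CPM, and without that strain the difference was -0.04.

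Over all 84 known symbiosis genes, including 25 without a symbol, 38 fell, 7 rose and 39 did not pass. The calls were mostly falls, in a background of 24.9% lower and 34.1% higher over all genes, and DESeq2 called 32 lower and 17 higher. Under the plain sum 73 were lower and 1 higher, against 56.2% lower and 16.2% higher over all genes. With the 7 libraries of highest share left out, 33 fell and 8 rose, against 20.7% lower and 21.2% higher over all genes (41.9% called).

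Lists that the study took from co-expression modules of its DZA libraries gave further groups. All 7 autophagy genes fell (median -0.82), led by MtrunA17_Chr1g0194141, which had 3.69, 5.96 and 9.42 CPM in poor and 0, 1.22 and 4.28 CPM in rich libraries (difference -2.14, SE 0.28, edgeR adjusted p = 8.1e-08). In 16 of 17 rich libraries it lay below every poor library. Of 10 peroxisome genes 9 fell (median -0.69), of 14 translation genes 7 fell (median -0.54), of 15 acid phosphatase genes 7 fell and 1 rose (median -0.38), and of 10 genes of the response to phosphate starvation 4 fell (median -0.42). These counts stand beside 24.9% lower and 34.1% higher over all genes. No autophagy or peroxisome gene was higher at an unadjusted p under 0.05 or with DESeq2 or limma-voom. DESeq2 called 2 translation genes and 4 acid phosphatase genes higher, against 46.2% of all genes. Of 6 genes of systemic acquired resistance only MtrunA17_Chr7g0274181 passed, with medians of 20.2 CPM in poor and 6.43 CPM in rich libraries (difference -1.45, SE 0.21). Outside these lists, MtrunA17_Chr5g0401681, annotated as a cytochrome P450, had medians of 15.8 and 4.94 CPM (difference -1.46, SE 0.32).

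Auxin-activated signalling was the nuclear list with the most rises: of 17 genes tested, 8 rose, 1 fell and 8 did not pass, with a median of 0.57. Over all genes 34.1% were higher. DESeq2 called 12 of the 17 higher, against 46.2% of all genes, and limma-voom 5, against 28.6%. MtrunA17_Chr3g0115271 had 1.93, 4.79 and 6.59 CPM in poor and 3.74, 13.8 and 30.1 CPM in rich libraries (difference 1.87, SE 0.21, edgeR adjusted p = 5.9e-09), with 16 of 17 rich libraries above every poor one. MtrunA17_Chr8g0376771 rose by 0.46 (SE 0.14). Under the plain sum none of the 17 rose and 8 fell, MtrunA17_Chr3g0115271 was at 0.46 (adjusted p = 0.054) and MtrunA17_Chr8g0376771 at -0.69, while the list's median lay 0.32 above that of all genes. Of 6 nucleosome assembly genes 1 rose, MtrunA17_Chr7g0269331, from 18.8, 22.4 and 28.1 CPM in poor to 5.71, 40.02 and 80.2 CPM in rich libraries (difference 0.91, SE 0.17, adjusted p = 4.2e-05), which turned to -0.47 under the plain sum.

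**Figure D3:**
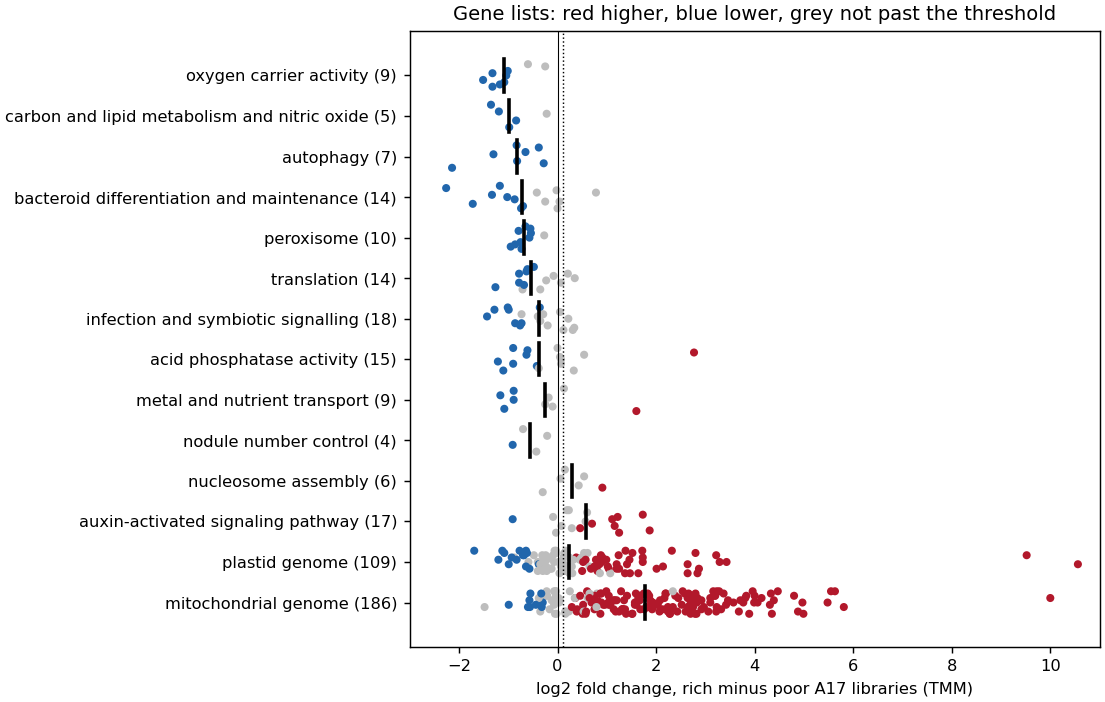
Log2 difference between 17 rich and 19 poor A17 libraries on the TMM scale (horizontal axis) for the tested members of 14 gene lists (number in brackets). Each point is 1 gene, red where higher, blue where lower and grey where not past the threshold, black bars are list medians, and the dotted line is the median of all genes at 0.11. Oxygen carrier, autophagy and peroxisome genes lie left of 0, and most mitochondrial genes lie right of it.

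Most genes of the mitochondrial genome rose, while those of the plastid genome moved both ways. On the TMM scale 146 of 186 mitochondrial genes tested rose and 9 fell (median 1.78), and 42 of 109 plastid genes rose and 16 fell (median 0.24), against 34.1% higher and 24.9% lower over all genes. Under the plain sum 80 mitochondrial genes rose and 37 fell, with a median of 0.56 that lay 1.56 above that of all genes, and 14 plastid genes rose and 60 fell. The summed mitochondrial level on the TMM scale was 16920, 19730 and 24670 CPM in poor and 24050, 42590 and 88550 CPM in rich libraries. As a plain share of plant counts the order of the medians was the reverse, at 2.67% in rich and 3.10% in poor libraries, while plastid genes held 1.07% and 0.975%. Without the 7 libraries of highest share, 154 mitochondrial genes rose and 6 fell, and 33 plastid genes rose and 35 fell (median -0.04). MtrunA17_CPg0493211, plastid 30S ribosomal protein S14, had medians of 7.55 CPM in poor and 14.6 CPM in rich libraries (difference 1.47, SE 0.30, edgeR adjusted p = 8.8e-05). This call was lost without those 7 libraries (0.16, adjusted p = 0.46). MtrunA17_CPg0492381, a plastid locus with no product in the sources used here, had 4.36, 16.99 and 41.9 CPM in poor and 281, 5681 and 31420 CPM in rich libraries. All 17 rich libraries lay above all 19 poor ones, which held for 45 genes or 0.129% of those tested, and the difference was 9.52 (SE 0.61, edgeR adjusted p = 3.2e-14).

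A few loci with no name in the sources used here held a large share of the *M. truncatula* counts, above all in rich libraries. MtrunA17_Chr5g0422081 held 8.51%, 22.4% and 30.1% of plant counts (lowest, median, highest) in rich libraries against 2.38%, 5.08% and 7.74% in poor ones, without overlap. MtrunA17_Chr5g0422141 held a median of 15.2% in rich and 6.53% in poor libraries, and MtrunA17_Chr5g0422041 held 6.14% and 1.03%. In 1 rich library of strain 199 (plant 3388) MtrunA17_Chr5g0422141 was at 0, and MtrunA17_Chr5g0422261 held 17.4% of plant counts, against at most 1.09% in any other of the 36 libraries. The division of reads between such loci by the count estimation was not checked. The reference used for counting included ribosomal RNA of both organisms. The study reports that ribosomal RNA made up a variable and at times large part of the reads of its samples. Which loci are ribosomal is not given in the sources used here. The rhizobial share and the plain sum thus include the ribosomal RNA that was counted, in an amount not measured here for each A17 library. Grouping on a share computed without the largest loci of both organisms called 12108 genes higher and 8843 lower. MtrunA17_Chr0c01g0489101 held a median of 2.78% in rich and 0.635% in poor libraries.

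Other loci of high count were lower in rich libraries as shares of plant counts, or did not pass. MtrunA17_Chr5g0427351 held 2.75%, 3.47% and 4.35% in poor and 0.0475%, 0.458% and 2.25% in rich libraries (log2 difference -1.10, SE 0.30). MtrunA17_Chr1g0186761 held a median of 5.49% in poor and 2.58% in rich libraries, but its log2 difference on the TMM scale was -0.13 (SE 0.31) and changed sign under some settings. MtrunA17_Chr1g0213751 held 1.62% and 1.05%, with a log2 difference of 0.24 (SE 0.25) that turned to -0.87 under the plain sum.

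Among genes that met the naming rule, unnamed loci had the largest differences, and those lower in rich libraries were at 0 in most of these. MtrunA17_Chr3g0090781 had 0.0870, 0.534 and 1.53 CPM in poor and 0, 8.002 and 5990 CPM in rich libraries (difference 11.39, SE 1.34). It was above every poor library in 11 rich ones and at 0 in 2, and limma-voom put the difference at 6.08. MtrunA17_Chr0c01g0489011 had 297.5, 847 and 2012 CPM in poor libraries and was at 0 in 13 of 17 rich ones (difference -3.50, SE 1.09). With so many libraries at 0 the fitted value moved widely, from -2.48 with limits of 50% and 10% (adjusted p = 0.14) to -14.23 with strain as a term, and it is no bound on a fold. MtrunA17_Chr7g0237041 and MtrunA17_Chr7g0221961, each with a difference of -3.40, were at 0 in 14 and 16 rich libraries but also in 2 and 5 poor ones, and without the 7 libraries of highest share they no longer passed, at -2.93 (edgeR adjusted p = 0.077) and -2.70 (0.074). The 1 rich library of strain 25B that held counts of both moved these values, since without that strain the differences were -5.08 and -12.65, the second fitted to rich libraries that were all at 0 and so no bound on a fold.

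Those 7 libraries, all with a share above 62%, shared high levels of a set of genes that were far lower in the other rich libraries. With no test, since the set was defined after the values were seen, 21 genes had at least 10 plain CPM (of each library's *M. truncatula* total, with no TMM factor) in each of the 7 and at least 10 times the highest level of the other 73 A17 libraries. Their summed level was 2425 to 10540 plain CPM in the 7 libraries, which came from 6 strains, and at most 30.3 (median 16.2) in the other 73. The 7 libraries had shares of 62.9% to 96.3%. The next share was 60.1%, in a plant of strain 230 where the 21 genes summed to 8.36 plain CPM. MtrunA17_Chr1g0199121 led the set, with 918.1 to 6923 plain CPM in the 7 libraries and at most 9.03 in the others. MtrunA17_Chr1g1003083, which belongs to the set, and MtrunA17_Chr5g0422261, which does not, had log2 differences of 10.97 and 10.84 over all rich libraries and of 2.96 and 2.76 without the 7. For MtrunA17_Chr5g0422261 leaving out strain 199 alone, which holds the library at 17.4% of plant counts, gave 6.27.

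In the host DZA the same 21 genes were high in 13 of 80 libraries, all rich, at 3057 to 13700 plain CPM, and at most 45.5 in the other 67. There the shares overlapped: the 13 libraries ran from 49.97% to 87.54%, while the highest share among the other 67 was 68.5%. None of the 21 genes is of the plastid or mitochondrial genome, and the sources used here give them no product. The 7 A17 libraries and the other 10 rich ones differed in other ways as well. The 3 *S. meliloti* loci with the most counts held 0.534% to 53.1% of rhizobial counts in the 7 and 44.1% to 74.7% in the 10, and the part of this difference in the results was not tested. Without the 7 libraries 7371 genes were higher and 7211 lower (41.9% of genes). Of the 11887 higher calls 6697 (56.3%) were kept in the same direction, and of the 8673 lower calls 6530 (75.3%). The kept calls made up 90.9% of the higher and 90.6% of the lower calls made without the 7.

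**Figure D4:**
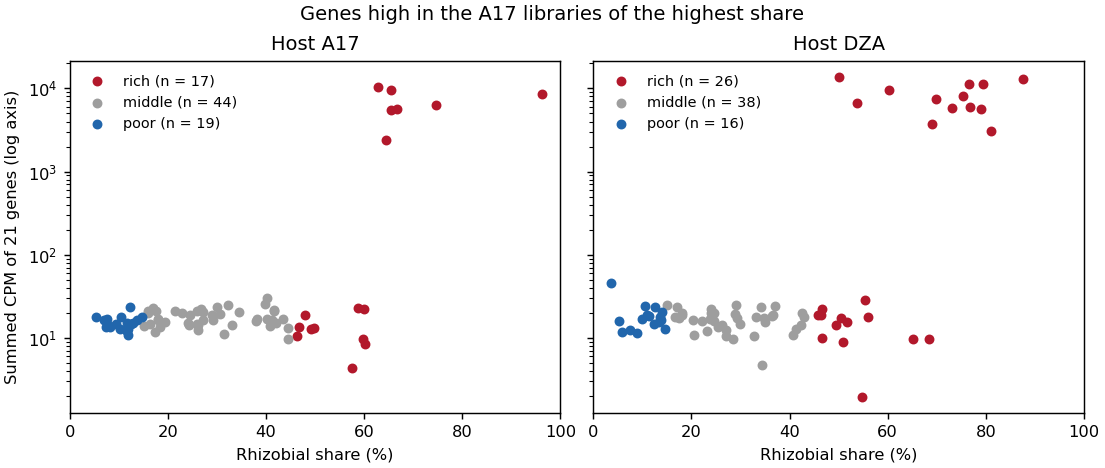
Summed level of the 21 genes (vertical axes, plain CPM, log axis) against rhizobial share (percent, horizontal axes) in the 80 A17 libraries (left) and the 80 DZA libraries (right), coloured by group. In A17 the 7 points above 62% lie at 2425 to 10540 and all others at or below 30.3, and in DZA 13 rich points lie at 3057 to 13700.

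The falls of symbiosis genes were also seen between plants with the same strain label. The rich libraries of strains 25B and 724B, which enter this contrast, held genes of a second strain. The fit with strain as a term was not repeated without them. With strain as a term in the fit, which reads the contrast in the 13 rich and 12 poor libraries of the 11 strains with both, 4335 genes were higher and 6424 lower (30.9% of genes, 12.4% higher and 18.4% lower). In this fit 8 bacteroid genes, 7 infection and signalling genes and 8 oxygen carrier genes were lower, of which 8, 7 and 7 were among the lower calls without the strain term, and no member of these lists was higher. At an unadjusted p under 0.05, 1 infection and signalling gene was higher. Of 17 auxin genes 4 were higher and 1 lower, and of 109 plastid genes 20 were higher and 19 lower. MtNCR169 differed by -2.39 (edgeR adjusted p = 0.0002), MtNAD1 by -1.64 (5.7e-05), MtSYT1 by -0.99 (0.00043) and MtDMI3 by -1.40 (0.00039) in this fit. MtLATD/NIP did not pass (-0.75, adjusted p = 0.068).

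A slope on share within strains, fitted over all 80 A17 libraries, called 11980 genes rising and 10564 falling with share (64.7% of genes, 34.4% rising and 30.3% falling). Without the 5 A17 libraries that hold genes of another strain, 9930 rose and 10654 fell, so falls became the larger number. The 36 rich and poor libraries are among the 80, so this fit is not independent of the comparison above. MtNCR169 changed by -0.51 on the log2 scale per 10 percentage points of share, MtNAD1 by -0.37, MtrunA17_Chr1g0197531 by -0.37, MtSymCRK by -0.34 and MtDMI3 by -0.32. MtMOT1.2 changed by 0.30, MtrunA17_Chr3g0115271 by 0.32 and MtrunA17_Chr7g0269331 by 0.17.

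The 44 A17 libraries with shares between 15.2% and 44.6% had no part in forming the groups. A slope on share over them alone called 3260 genes rising and 4240 falling (21.5% of genes, 9.36% rising and 12.2% falling). Of the 20560 genes called between rich and poor libraries, 5517 were called with the same sign here, which is 26.8% of those and 73.6% of the calls in these libraries, and 53 with the opposite sign. The bacteroid group had 8 of 14 genes falling and none rising, infection and signalling 5 of 18 falling and 1 rising, oxygen carriers 4 of 9 falling, mitochondrial genes 97 of 186 rising and 5 falling, and plastid genes 3 of 109 rising and 38 falling. Of 17 auxin genes 3 rose and 1 fell, and of the 84 known symbiosis genes 4 rose and 20 fell. MtSYT1 changed by -0.23 per 10 points (adjusted p = 6.2e-05), MtDMI3 by -0.31 (4.2e-05), MtNAD1 by -0.38 (0.00034), MtNCR169 by -0.33 (0.037) and MtrunA17_Chr1g0197531 by -0.32 (3.9e-06).

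Other genes did not pass in these middle libraries. The oxygen carrier gene of highest level, MtrunA17_Chr1g0148751, changed by -0.08 per 10 points (edgeR adjusted p = 0.30), MtDNF2 by -0.09 (0.20) and MtSYMREM1 by -0.04 (0.48). MtMOT1.2 changed by 0.11 (0.60). With strain as a term only 484 genes rose and 277 fell in these libraries, and under the plain sum 361 rose and 17469 fell. A middle library of strain 121 held genes of a second strain, and without it 3334 genes rose and 3582 fell.

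The host DZA gave a second set of plants with the same contrast. There, 26 rich and 16 poor libraries gave 10523 higher and 9167 lower genes of 34224 tested (57.5% of genes, 30.7% higher and 26.8% lower), and under the plain sum 4269 higher and 19647 lower. Of these libraries, 1 poor one labelled strain 182 matched the rhizobial genes of strain 176A, while rhizobial genes foreign to the labelled strain were also seen in 1 poor one of strain 176A and 1 rich one of strain 25B. Without these 3, 9903 genes were higher and 9456 lower. Of the 19064 genes called in A17 and tested in DZA, 14725 were called with the same sign, which is 77.2% of them and 79.5% of the DZA calls tested in A17, and 176 with the opposite sign. The log2 differences of 32289 genes had a Pearson correlation of 0.86 across genes, which are not independent replicates and share the reference and the sequencing lane. The bacteroid group had 10 of 14 genes lower, infection and signalling 11 of 18, oxygen carriers 8 of 9, autophagy 7 of 7 and peroxisome 10 of 10, and none of these 5 lists had a member higher, also at an unadjusted p under 0.05. The oxygen carrier, autophagy, peroxisome and auxin lists came from co-expression modules of the DZA libraries. Their members were thus chosen for moving together in DZA, and a shared direction there is no separate support. Of 18 auxin genes tested in DZA 4 were higher and none lower (median 0.25, against 30.7% of all genes higher), of 109 plastid genes 30 were higher and 27 lower, and of 187 mitochondrial genes 110 were higher and 20 lower. Of the 59 known symbiosis genes with a symbol, 49 had the same sign in both hosts, and of the 33 called in A17, 32 had the same sign and 29 were also called in DZA.

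Most of the genes described above were past the threshold in DZA too. In DZA, MtNCR169 had 23.8, 121 and 274 CPM in poor and 6.87, 30.4 and 147.5 CPM in rich libraries, a difference of -1.80 (SE 0.29, edgeR adjusted p = 2.2e-06). MtDMI3 differed by -1.50 (SE 0.18), MtNAD1 by -1.56 (SE 0.23), MtSYT1 by -1.16 (SE 0.12) and MtrunA17_Chr1g0148751 by -1.08 (SE 0.18). MtMOT1.2 rose by 0.93 (SE 0.30). MtTML2, at -0.38 (SE 0.24, adjusted p = 0.17), and LjTRICOT-like, at 0.60 (SE 0.34, adjusted p = 0.12), did not pass in DZA.

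The difference between hosts was tested as an interaction over the rich and poor libraries of both. It called 1308 of 36778 genes (3.56%), with 581 more positive (1.58%) and 727 more negative (1.98%) in A17, and none of the 84 known symbiosis genes was among them (edgeR quasi-likelihood test, with 4 of the 84 at an unadjusted p under 0.05). For MtNCR169 the A17 minus DZA difference was -0.55 (SE 0.44, adjusted p = 0.66) and for MtTML2 -0.65 (SE 0.35, adjusted p = 0.45). For MtrunA17_CPg0492381 it was 3.20 (SE 0.74, edgeR adjusted p = 0.0029) and for MtrunA17_Chr3g0090781 5.57 (SE 1.64, adjusted p = 0.036). Both calls were lost without the 7 libraries of the 2 hosts that hold genes of another strain, at 2.19 (adjusted p = 0.077) and -0.08 (adjusted p = 1), while none of the 84 symbiosis genes was called there either.

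**Figure D5:**
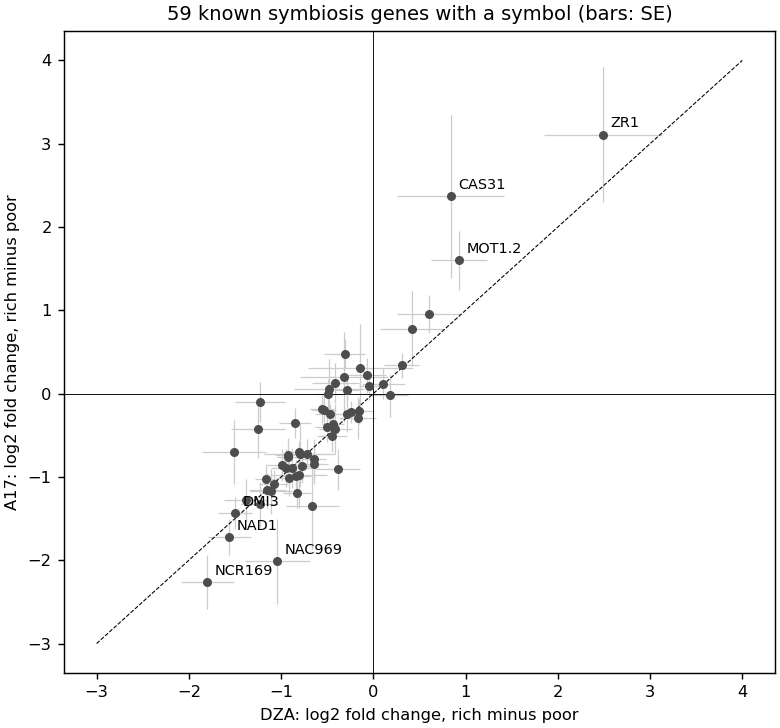
Log2 difference of rich minus poor libraries in A17 (vertical axis) against the same in DZA (horizontal axis) for the 59 known symbiosis genes with a symbol, with SE bars in both directions. The dashed line marks equal values. MtNCR169, MtNAD1 and MtDMI3 lie at the lower left of both axes and MtMOT1.2 at the upper right, and 49 genes have the same sign in both hosts.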

How the data were processed

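Nodule RNA of 160 plants was sequenced, 80 of them A17. The table deposited by the authors holds expected counts, estimated for 49928 *M. truncatula* and 6193 *S. meliloti* rows with Salmon 1.4.0 against A17 r5.0 transcripts and those of an *S. meliloti* reference strain, summed to genes with bias correction and not scaled for library size. Because the estimation divides reads between similar loci, near-identical copies are uncertain.

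Libraries were grouped by rhizobial share, over labels of host, strain and plant number. The members, gene lists and tests were chosen with earlier results of these data known. Counts were rounded. A gene was tested if 4 or more A17 libraries held 10 or more counts of it. Models were edgeR 4.0.16 quasi-likelihood fits with TMM on *M. truncatula* counts and Benjamini-Hochberg adjustment (threshold 0.05), in R 4.3.3. DESeq2 1.42.0, limma 3.58.1 (voom), other scalings, filters and limits, thinning, and leaving out strains were alternatives, and leaving out the 7 libraries of highest share, the strain 216 library or the 4 libraries with another strain's genes (5 of all A17 libraries, 3 in DZA) was added after the data were seen. Fits were tested on simulated counts.

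Named genes were the listed symbiosis genes with a symbol, and, among genes past the threshold with the same sign within strains and at least 10 CPM on average, the 10 largest named changes and the 3 largest unnamed ones in each direction, and the 5 genes with most counts per group. Only 5 named rises met this rule. MtrunA17_Chr3g0115271, MtrunA17_CPg0492381, MtrunA17_Chr1g0199121 and single members of the lists without a symbol were named after their values were seen. Planned lists by product were not used here, since the identifiers had no match in the reference table.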

Additional observations from a re-analysis of the deposited data

Results flagged for a closer look

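The rich minus poor difference of 2 named loci differed between hosts by the interaction test. MtrunA17_CPg0492381 differed by 9.52 in A17 and 6.17 in DZA (A17 minus DZA 3.20, edgeR adjusted p = 0.0029), and in DZA its highest poor library was at 1091 CPM against 41.9 CPM in A17. MtrunA17_Chr3g0090781 differed by 11.39 in A17 and 5.65 in DZA (A17 minus DZA 5.57, edgeR adjusted p = 0.036), with its highest poor library in DZA at 219 CPM against 1.53 CPM in A17. Without the 7 libraries of both hosts that hold genes of another strain, the host difference was 2.19 (adjusted p = 0.077) for the first locus and -0.08 (adjusted p = 1) for the second.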

How the results depend on the processing

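The scaling and the strain term both moved the counts. The plain sum called 5657 genes higher and 19599 lower between rich and poor libraries, 5232 and 21165 in the within-strain slope, 361 and 17469 in the libraries between the groups, and 4269 and 19647 in DZA, with 420 negative host differences. Strain as a term gave 4335 higher genes in A17 and 3939 in DZA, and 484 rising and 277 falling between the groups. The lower count was 15191 without a count filter and 5570 after thinning, and the higher count was 7371 without the 7 libraries of highest share. Leaving out each strain in turn gave 11248 to 11998 higher and 8018 to 8981 lower genes.

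Signs turned for a few named genes. Under the plain sum LjTRICOT-like was at -0.30, MtCHIT5a at -0.64, MtrunA17_Chr7g0269331 at -0.47, MtrunA17_Chr8g0376771 at -0.69 and MtrunA17_Chr1g0213751 at -0.87. Without a filter MtCHIT5a was at -0.01, MtrunA17_Chr8g0376771 at -0.07 and MtrunA17_Chr1g0213751 at -0.30. MtrunA17_Chr1g0186761 was at 0.08 with DESeq2, 0.16 with limits of 40% and 20% and 0.20 without the 7 libraries, where MtDNF1 was at 0.03. MtCAS31 ranged from -0.04 without strain 230 to 3.97 without strain 144B. The causes of these changes were not tested.

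No paired analysis was possible because plant numbers are not shared between groups. The main comparison had no strain term and treated plants of the same strain as independent. Strain was a term only in the alternative fits and in the within-strain slope. The rich and poor groups differ in *M. truncatula* depth without overlap, so genes of low level are less certain in rich libraries. Relatedness between strains was not modelled. No library was left out singly except that of strain 216, since both groups exceed 5 libraries.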

Other observations

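Other lists of the study's co-expression modules were read against a background of 24.9% of all genes lower and 34.1% higher. The 5 genes of the response to nitrogen starvation share members with the autophagy list, MtrunA17_Chr1g0194141 among them, so their falls are largely the same calls. All 5 were lower in rich A17 libraries (median log2 difference -0.83), and 2 of them also fell with share in the libraries between the groups. Of 7 ferric iron binding genes 4 were lower (median -0.63). Of 9 peroxidase genes 2 were lower (median 0.09), of 4 cytokinin signalling genes 1 (median -0.04), of 3 starch binding genes 1 (median -0.12) and of 3 nitrate transporter genes 1 (median 0.24), and none of these was higher by edgeR's adjusted p, while at an unadjusted p under 0.05 1 nitrate transporter gene was higher and DESeq2 called 3 peroxidase genes, 1 cytokinin signalling gene and 1 nitrate transporter gene higher. Of the 25 known symbiosis genes without a symbol, 10 were lower and 2 higher (median -0.34).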
